A study of Homo sapiens with 6 samples.

Results

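The genes described here encode the shell, resident and partner proteins of PML nuclear bodies. They are PML, SP100, SP110, SP140L, DAXX and ATRX, 6 of the 57820 genes in the count table, taken by symbol alone, and each symbol had 1 row. RNA was sequenced from M14, a human melanoma cell line that carries 1 shRNA against STAG2, a subunit of the cohesin ring, under doxycycline control. In the KD libraries the cells received doxycycline for 5 days. The WT cells carried the same construct, were kept in the same puromycin-containing medium and received no doxycycline. There were 3 libraries per condition, which the study counts as samples that are biologically independent. Since doxycycline was given to the KD cells only, an effect of the drug and an effect of the knockdown cannot be told apart in these libraries.

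PML nuclear bodies are spherical protein assemblies in the nucleus. The PML protein, an E3 ligase of the TRIM family, forms their shell, and its conjugation to SUMO, a small ubiquitin-like modifier, recruits proteins that bind SUMO. SP100 is a permanent resident of the bodies. SP110 and SP140L belong to the same family, in which some isoforms carry a SAND domain, a PHD finger and a bromodomain that read chromatin. DAXX is a histone chaperone that carries the variant histone H3.3, and ATRX is the chromatin remodeler with which it places H3.3 in heterochromatin and at telomeres. PML, SP100 and SP110 are textbook interferon-stimulated genes, and the bodies restrict the genomes of DNA viruses.

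Libraries held between 24895998 and 35181733 expected counts in total, so the scarcest member value, 228 counts of SP110 in WT replicate 1, lay far above a floor of 3 counts. STAG2 itself was at 66.5, 34.8 and 28.8 CPM (the usual count relative to library size, scaled by edgeR's TMM factors) in WT replicates 1 to 3 and at 16.0, 7.31 and 6.70 CPM in KD replicates 1 to 3 (log2 fold change −2.12, adjusted p = 0.0342, edgeR). Same-numbered libraries deviated together from their group means. The mitochondrial share of counts was 5.07% for WT replicate 1 against 2.12% to 2.94% elsewhere. WT replicate 1 also had the most genes above 0 counts, 20646, and KD replicate 1 the fewest, 16028, against 17103 to 17995 elsewhere. All 8 melanocyte lineage genes examined were detected, with a summed level of 1861 to 6311 CPM in WT and 1195 to 2606 CPM in KD. The 10 leukocyte genes examined summed to between 2.18 and 4.01 CPM in any library, and CD3E, CD3D, MS4A1 and FCGR3A were at 0 throughout. Of these 10 genes 3 could be tested and 0 were called in edgeR, 0 at an unadjusted p under 0.05, and 0 in DESeq2 or limma-voom. Of the 8 lineage genes 1 was lower in KD, S100B, and 6 were lower with the replicate block, while 0.839% and 4.42% of all tested genes were lower in these fits. The part of the lineage genes in the results below was not tested, and in bulk RNA fewer cells of a type and less RNA per cell cannot be told apart.

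The 3 genes of the SP100 family lie in a cluster on chromosome 2, and their start regions are shown first. SP110 occupies 231029902 to 231090444 on the minus strand of GRCh37. SP140L follows from 231191899 to 231268447 and SP100 from 231280657 to 231410321, both on the plus strand. SP140, the remaining member of the family, runs from 231067826 to 231177930 on the plus strand and overlaps SP110 on the opposite strand. Windows of 250 bases before and 50 bases after annotated transcript starts were taken from RefSeq (GRCh38.p14), which gave 5 windows for SP100, SP110 and SP140L and none for PML, DAXX and ATRX. Each window matched chromosome 2 of GRCh37 at 1 place. The stretches below are shown because they hold the longest run of bases common to both SP110 starts and the SP140L start. They are written 5′ to 3′ on the strand of the gene, with GRCh37 positions, and the capitals mark the run of 16 bases or its counterpart.

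SP140L, chr2:231191814-231191843, plus strand: taaatacTTTCACTTTTCTTTTCcccattt
SP110, downstream start, chr2:231084728-231084757, minus strand: cgaaaacTTTCACTTTTCTTTTCtcggaag
SP110, upstream start, chr2:231090434-231090463, minus strand: caaagagGAAAAGAAAAGTGAAAttgccta
SP100, chr2:231280845-231280874, plus strand: taaatacTTTCACTTCTCTTTTCcccattt

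The run of 16 bases began 87 bases before the SP140L start and 51 bases before the downstream SP110 start. At the upstream SP110 start it lay on the opposite strand, 90 to 105 bases before the start. That start faces the start of SP140 at a distance of 100 bases, so both genes share the stretch. Among the 35116 RefSeq windows, 4 (0.0114%) held the run on either strand, and they belonged to SP110, SP140 and SP140L alone. At the downstream SP110 start and at SP140L, the identity extended to 18 bases. The closest stretch of the SP100 window differed from these 18 bases at 1 position, T11C, counted from 1 at the 5′ end with the SP110 base first. The whole SP100 and SP140L windows were 77.1% identical when aligned, against 46.9% to 56.5% for the other pairs of windows. A longer stretch of the SP140L window shows the surroundings of the run.

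SP140L, chr2:231191761-231191896, plus strand: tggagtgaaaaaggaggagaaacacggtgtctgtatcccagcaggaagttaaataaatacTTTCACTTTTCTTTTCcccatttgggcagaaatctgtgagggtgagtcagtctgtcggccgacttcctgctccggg

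The core of the interferon-stimulated response element was searched as GAAA and GAAA separated by 2 bases of any kind, on both strands. It was in 0 of the 5 windows, while 3.57% of all 35116 windows held it. The gamma-activated sequence, TTC and GAA separated by 3 bases of any kind, was in 1 of the 5, the window of the downstream SP110 start, and in 7.66% of all windows. A more closely spaced pair, GAA and GAAA separated by 2 bases of any kind, was added after the windows had been read. It is another motif, which a match of the core need not hold. It was in 4 of the 5 windows, all but that of the second SP100 start, and in 7.66% of all windows. In these 4 windows the match falls inside the run of 16 bases or its counterpart. Such matches describe letters only, and no binding was measured here.

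**Figure D1:**
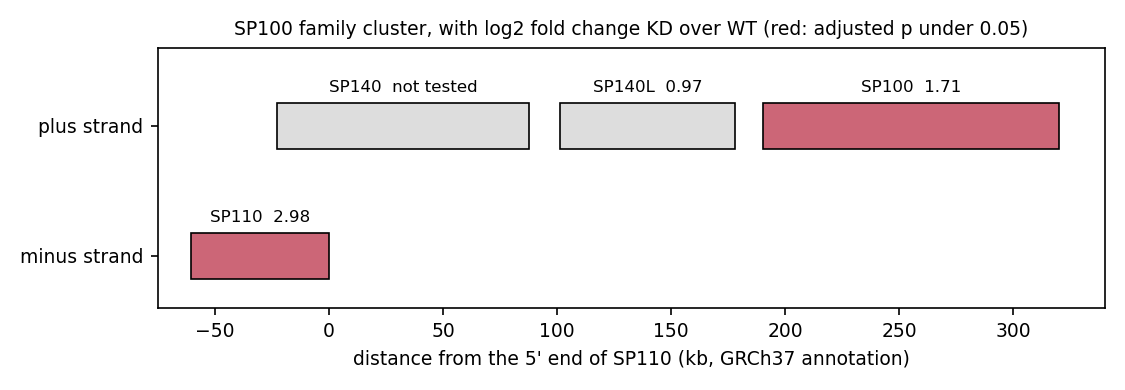
Gene bodies of the SP100 family cluster on chromosome 2, drawn to scale by distance in kb from the 5′ end of SP110, with the strand on the vertical axis and the log2 fold change of KD over WT beside each name. SP110 (2.98) and SP100 (1.71) are red because their adjusted p was under 0.05, SP140L (0.97) lies between them, and SP140 was too low to be tested.

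PML, SP100 and SP110 rose in KD, by 3.97-fold, 3.27-fold and 7.91-fold. SP140L was 1.95-fold higher in KD, DAXX was at 1.07-fold of its WT level, and ATRX at 0.599-fold. The quasi-likelihood test of edgeR, adjusted by Benjamini-Hochberg across 15605 genes, called 3 of the 6 higher and 0 lower at an adjusted p under 0.05. Across all tested genes, 1.75% were called higher, 0.839% lower and 2.59% in either direction. In the fit with the replicate number as a block, 4 of the 6 were called higher and 1 lower, against 5.1% and 4.42% of the tested genes and 9.52% in either direction. The added calls were SP140L and ATRX. For 4 of the 6 genes the lowest KD value exceeded the highest WT value, which held for 11.8% of the tested genes, and 0 of the 6 showed the reverse, which held for 10.5%. The median log2 fold change of the 6 genes was 1.34, and that of all tested genes was −0.03.

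**Figure D2:**
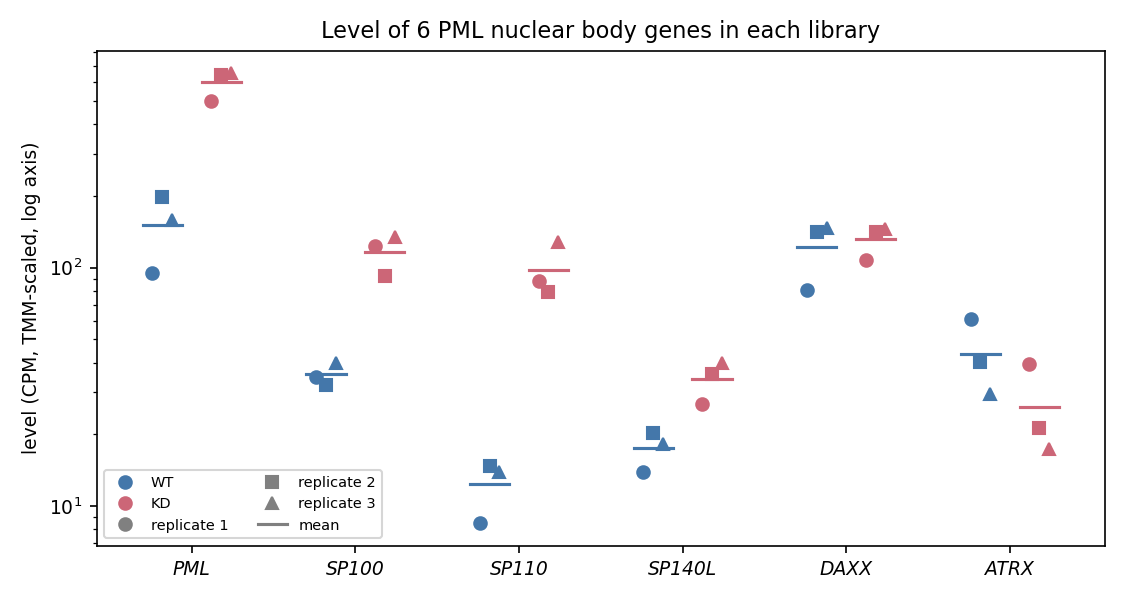
Level of each of the 6 genes in each library, in CPM on a log axis, with WT in blue, KD in red, the marker shape giving the replicate number and a line at the mean. The WT and KD points do not overlap for PML, SP100, SP110 and SP140L, and they overlap for DAXX and ATRX.

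PML (ENSG00000140464, chromosome 15 of GRCh37, 74287014 to 74340168, plus strand) builds the shell of the bodies. It was at 94.97, 198 and 158 CPM in WT replicates 1 to 3. In KD replicates 1 to 3 it was at 497, 642 and 652 CPM. The lowest KD library exceeded the highest WT library, and replicate 1 was the lowest library of both conditions. The means with their SD were 150.4 ± 52.1 (WT) and 597 ± 87.0 (KD) CPM with n = 3 per condition, and ± gives the SD hereafter. The log2 fold change was 1.99 with a standard error of 0.28, and its adjusted p in edgeR was 0.00648. Between same-numbered libraries, the log2 difference was 2.39, 1.69 and 2.05 for replicates 1 to 3. Of the 15605 tested genes, 384 had a larger log2 fold change. A long non-coding RNA gene annotated on the opposite strand overlaps PML exons and has no row in the count table.

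SP100 (ENSG00000067066), the resident that gives the family its name, had the steadiest WT level of the 3 genes that rose. It was at 34.8, 32.3 and 39.9 CPM in WT replicates 1 to 3 and at 124, 92.2 and 134 CPM in KD replicates 1 to 3. The groups did not overlap, and the lowest KD library was replicate 2. The means were 35.7 ± 3.87 (WT) and 117 ± 21.9 (KD) CPM with n = 3 per condition. Its log2 fold change was 1.71 with a standard error of 0.21, and its adjusted p in edgeR was 0.00262. The differences between same-numbered libraries were 1.83, 1.51 and 1.75 on the log2 scale. The processed pseudogene HMGB1P3 overlaps SP100 exons on the same strand, so RSEM could have divided reads between them. It averaged 0.0494 (WT) and 0.327 (KD) CPM.

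SP110 (ENSG00000135899) encodes a nuclear body protein best known from an inherited immunodeficiency with liver disease. It had the highest fold change of the 6 genes and the lowest WT level, per length of transcript as well. It was at 8.49, 14.8 and 13.9 CPM in WT replicates 1 to 3 and at 87.9, 79.1 and 127 CPM in KD replicates 1 to 3. The 2 groups were far apart, with no overlap, and their means were 12.4 ± 3.41 (WT) and 98.1 ± 25.7 (KD) CPM. The log2 fold change was 2.98 with a standard error of 0.29, and its adjusted p in edgeR was 0.000706. A larger log2 fold change was found for 177 tested genes. Same-numbered libraries differed by 3.37, 2.42 and 3.19 on the log2 scale for replicates 1 to 3. AC009950.2, a long non-coding RNA gene, overlaps SP110 exons on the opposite strand, so reads of these genes may not be told apart there. It averaged 0.284 (WT) and 0.991 (KD) CPM.

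SP140L (ENSG00000185404), a relative of SP140 with a shorter protein, had the smallest fold change of the 3 family members tested. It was at 13.9, 20.3 and 18.3 CPM in WT replicates 1 to 3 and at 26.9, 35.8 and 39.9 CPM in KD replicates 1 to 3. The groups did not overlap, yet the adjusted p was 0.0926 for a log2 fold change of 0.97 (standard error 0.25, edgeR's quasi-likelihood test). With the replicate block the log2 fold change was 0.96 and the adjusted p 0.0112 in the same test. The difference was 0.95, 0.82 and 1.12 on the log2 scale for replicates 1 to 3, so the 3 same-numbered comparisons were close. The means were 17.5 ± 3.2998 (WT) and 34.2 ± 6.66 (KD) CPM. SP140, whose start faces that of SP110, was at 1.10, 28.1 and 0 expected counts in WT and at 0, 0 and 30.1 in KD. It was too low for the test, and although the library kit was directional, whether the counting used strand is not given in the sources used here, so reads of SP110 and SP140 may not be told apart where they overlap. The SP140 signal came from 1 library of each condition almost alone.

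DAXX (ENSG00000204209, chromosome 6 of GRCh37, 33286335 to 33290793, minus strand) was at 80.7, 141 and 146 CPM in WT replicates 1 to 3. In KD replicates 1 to 3 it was at 107, 141 and 146 CPM. The groups overlapped almost fully, and the libraries numbered 1 were the lowest in both. The means were 123 ± 36.3 (WT) and 131 ± 20.7 (KD) CPM. A coding gene annotated on the same strand overlaps DAXX exons and has no row in the count table. The log2 fold change was 0.10 with a 95% interval from −0.47 to 0.67 (adjusted p = 0.919, edgeR's quasi-likelihood test), which leaves room for a change of moderate size in either direction. KD and WT were nearly equal for replicates 2 and 3, and their log2 difference for replicate 1 was 0.41. Without WT replicate 1 the direction turned, with a log2 fold change of −0.13 (adjusted p = 0.842, edgeR).

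ATRX (ENSG00000085224, chromosome X of GRCh37, 76760358 to 77041719, minus strand) was at 61.0, 40.1 and 29.6 CPM in WT replicates 1 to 3 and at 39.6, 21.3 and 17.3 CPM in KD replicates 1 to 3. KD replicate 1 lay within the WT range, so the groups overlapped around means of 43.6 ± 16.0 (WT) and 26.1 ± 11.9 (KD) CPM. The log2 fold change was −0.74 with a 95% interval from −1.55 to 0.07 (adjusted p = 0.391, edgeR's quasi-likelihood test). Within each replicate number, however, KD was below WT, by a log2 difference of −0.62, −0.91 and −0.77 for replicates 1 to 3. With the replicate block the log2 fold change was −0.77 with a 95% interval from −1.16 to −0.38 and an adjusted p of 0.021 in the same edgeR test. In the libraries numbered 1, ATRX was highest and DAXX lowest in both conditions. Such a course was not particular to these genes, since STAG2 was also highest and PML also lowest there in both conditions.

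**Figure D3:**
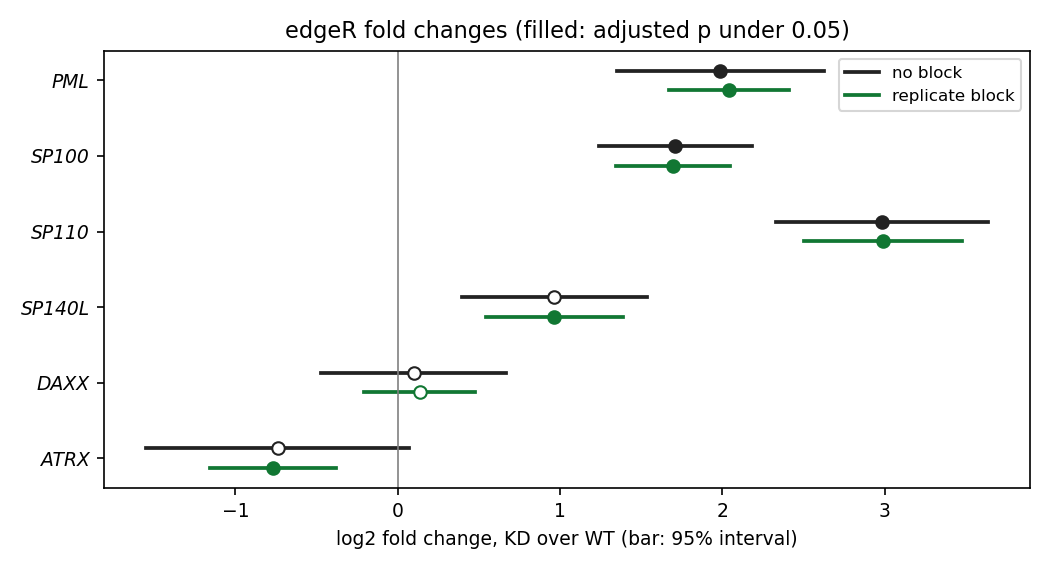
Log2 fold change of KD over WT with its 95% interval for each of the 6 genes, from edgeR without the replicate block (black) and with it (green). Filled points have an adjusted p under 0.05: the intervals of PML, SP100 and SP110 lie above 1 in both fits, SP140L and ATRX are filled with the block only, and DAXX lies near 0.

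With 3 libraries against 3, a two-sided exact permutation test on the log2 CPM of a single gene cannot give a p below 0.1. PML, SP100, SP110 and SP140L reached this value, while the exact permutation p was 0.2 for ATRX and 0.9 for DAXX. Leaving out each library in turn, PML, SP100 and SP110 kept an adjusted p of at most 0.0467, 0.0234 and 0.00888 in edgeR. Without both libraries numbered 1, the log2 fold changes were 1.87 for PML, 1.66 for SP100, 2.85 for SP110, 0.98 for SP140L, 0.00 for DAXX and −0.84 for ATRX. In that fit SP140L joined the 3 genes that passed (adjusted p = 0.0342, edgeR), and ATRX did not pass (adjusted p = 0.0951, edgeR).

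The balance between the genes was also read within each library as a ratio of expected counts to those of DAXX, which does not depend on the scaling between libraries. These ratios are not corrected for transcript length. PML had 1.18, 1.41 and 1.08 counts for each DAXX count in WT replicates 1 to 3, against 4.62, 4.57 and 4.48 in the KD replicates. The PML ratio thus varied little among the KD libraries (SD of its log2, 0.02, against 0.20 in WT). For SP110 the ratio was 0.105, 0.105 and 0.0954 in WT and 0.818, 0.563 and 0.875 in KD. The ratio of SP100 was 0.431, 0.230 and 0.273 in WT and 1.15, 0.656 and 0.921 in KD. For SP140L it lay between 0.125 and 0.172 in WT and between 0.250 and 0.274 in KD. The ratio of ATRX ran from 0.203 to 0.756 in WT and from 0.119 to 0.368 in KD, and it was highest in the library numbered 1 of each condition.

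**Figure D4:**
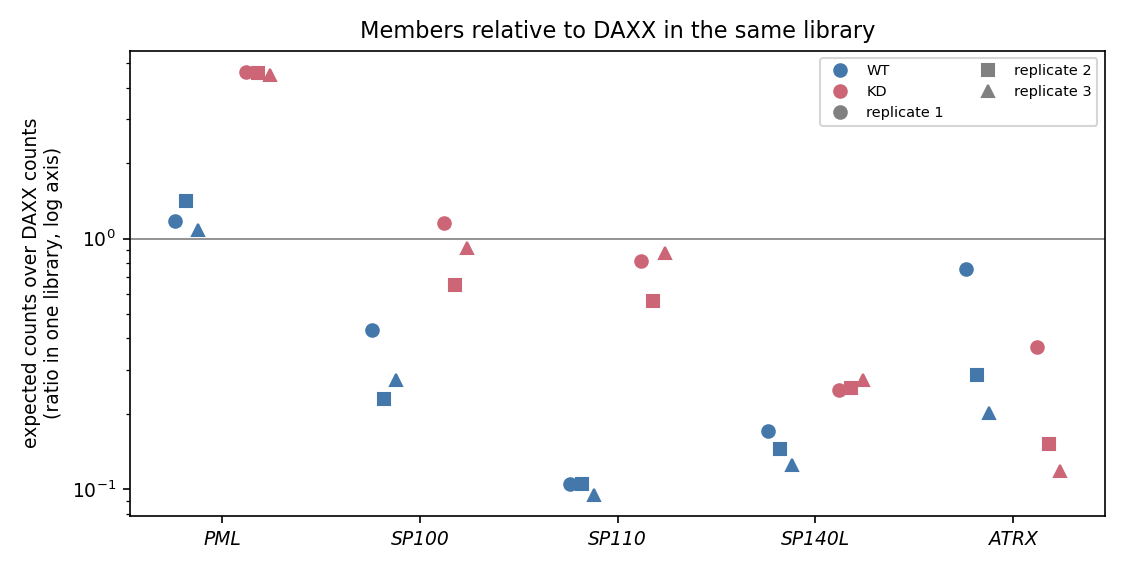
Expected counts of PML, SP100, SP110, SP140L and ATRX divided by those of DAXX in the same library, on a log axis, with WT in blue, KD in red and the marker shape giving the replicate number. The KD points of PML sit between 4.48 and 4.62, above the WT points at 1.08 to 1.41, and only the points of ATRX overlap between the conditions.

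Levels were compared between genes after division by the length of the canonical transcript, as CPM per kb. In WT the order was DAXX at 47.9 ± 14.2, PML at 27.0 ± 9.37, SP100 at 6.59 ± 0.72, SP140L at 6.59 ± 1.24, ATRX at 3.90 ± 1.43 and SP110 at 2.003 ± 0.55 CPM per kb (SD, n = 3). The ranges of DAXX and PML over the WT libraries overlapped, although DAXX stood above PML within each WT library. The ranges of SP100 and SP140L overlapped as well, and so did those of SP140L and ATRX. In KD the order was PML at 107 ± 15.6, DAXX at 51.3 ± 8.10, SP100 at 21.6 ± 4.04, SP110 at 15.8 ± 4.16, SP140L at 12.9 ± 2.51 and ATRX at 2.34 ± 1.06 CPM per kb (SD, n = 3). By this length PML stood above DAXX in every KD library, with 89.2 to 117 against 42.0 to 56.9 CPM per kb. SP110 moved from the last place to the fourth. Its range over the KD libraries overlapped those of SP100 and SP140L, but within each KD library it lay below SP100. With the length of all annotated exons instead, SP140L stood above SP100 in WT and SP110 above SP100 in KD, and the other places were as before. The KD means of PML and DAXX were then close, at 47.1 and 42.5 CPM per kb, so the size of their gap depends on the length chosen.

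The wider machinery of the bodies was examined in 4 lists with 55 genes, of which 54 were tested. By the edgeR test 1 gene was higher in KD and 0 were lower, that is 1.85% of the list genes tested against 2.59% of all tested genes, and 7 had an unadjusted p under 0.05. DESeq2 and the fit with the replicate block each called 3 of them, ISG20, IFI16 and H3F3A, and limma-voom called 2, ISG20 and IFI16. These are 5.56% of the 54 genes for DESeq2 and for the block and 3.70% for limma-voom, against 6.47%, 9.52% and 2.64% of all genes with an adjusted p in the same fits. The shares of DESeq2 and the block were thus no higher than over all genes. For an unadjusted p under 0.05, the share over all tested genes was not counted, here or in the paragraphs below. The median log2 fold change over the 54 genes was 0.01. Libraries did not overlap for 11 of the 54 genes, 7 higher and 4 lower in KD. Across all tested genes, 11.8% were higher without overlap and 10.5% lower.

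The enzymes that attach SUMO to PML and remove it formed the first list, with 16 genes. No gene passed in either direction in edgeR, DESeq2 or limma-voom, 0 had an unadjusted p under 0.05 in edgeR, and all 16 log2 fold changes lay between −0.57 and 0.28. SAE1, a subunit of the activating enzyme, averaged 375 ± 90.0 (WT) and 302 ± 58.4 (KD) CPM with n = 3 per condition. The 16 genes summed to 1252 to 1809 CPM in the WT libraries and to 1392 to 1570 CPM in the KD libraries.

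Proteins that modify PML or direct its turnover formed a list of 11 genes. Again 0 genes passed in edgeR, DESeq2 or limma-voom, and 1 had an unadjusted p under 0.05 in edgeR. CSNK2A1 encodes a catalytic subunit of casein kinase 2, which phosphorylates PML. It was at 125 ± 11.4 (WT) and 165 ± 5.73 (KD) CPM with n = 3 per condition, without overlap. Its log2 fold change was 0.40 (adjusted p = 0.324, edgeR).

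Among 10 genes for H3.3 and its other chaperones and heterochromatin partners, 0 passed in edgeR and in limma-voom, 1 in DESeq2, and 2 had an unadjusted p under 0.05 in edgeR. H3F3A, 1 of the 2 genes for H3.3, was at 137 ± 20.6 (WT) and 70.7 ± 28.1 (KD) CPM with n = 3 per condition. Its libraries did not overlap, and its log2 fold change was −0.96 (adjusted p = 0.133, edgeR). With the replicate block it was −1.01 with an adjusted p of 0.0144 in edgeR. H3F3A has many processed copies in the genome, so its counts are uncertain. HIRA, a subunit of another H3.3 chaperone complex, was at 38.3 ± 3.33 (WT) and 59.1 ± 7.79 (KD) CPM, also without overlap but higher in KD, with a log2 fold change of 0.63 (adjusted p = 0.155, edgeR). The other H3.3 gene, H3F3B, was at 372 ± 60.5 (WT) and 431 ± 46.3 (KD) CPM. TRIM28, a corepressor of the TRIM family and the most abundant of the list, was at 819.6 ± 305 and 699 ± 175 CPM.

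The last list held 18 proteins found in the bodies, of which 17 were tested and 1 rose. This was ISG20, an interferon-induced exonuclease, at 10.4, 5.40 and 9.50 CPM in WT replicates 1 to 3 and 153, 64.6 and 127 CPM in KD replicates 1 to 3. Its libraries did not overlap, and it had a log2 fold change of 3.77 with a standard error of 0.38 and an adjusted p of 0.000872 in edgeR. IFI16, a nuclear DNA sensor, was at 201, 184 and 156 CPM in WT and at 280.0, 345 and 340 CPM in KD, without overlap. Its log2 fold change of 0.84 had an adjusted p of 0.0599 in edgeR and of 0.00966 with the replicate block. RPA1, a single-stranded DNA binding protein, averaged 238 ± 22.9 (WT) and 174 ± 20.6 (KD) CPM with n = 3 per condition, without overlap and with an adjusted p of 0.299 in edgeR. Over all tested genes, 11.8% were higher and 10.5% lower in KD without overlap. In all, 6 genes of this list had libraries that did not overlap, 3 higher and 3 lower in KD, and 4 had an unadjusted p under 0.05. The other lower genes among the 6 were BLM, a DNA helicase, and TRIM24, a TRIM family cofactor, with adjusted p of 0.342 and 0.175 in edgeR, named after their values were seen.

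**Figure D5:**
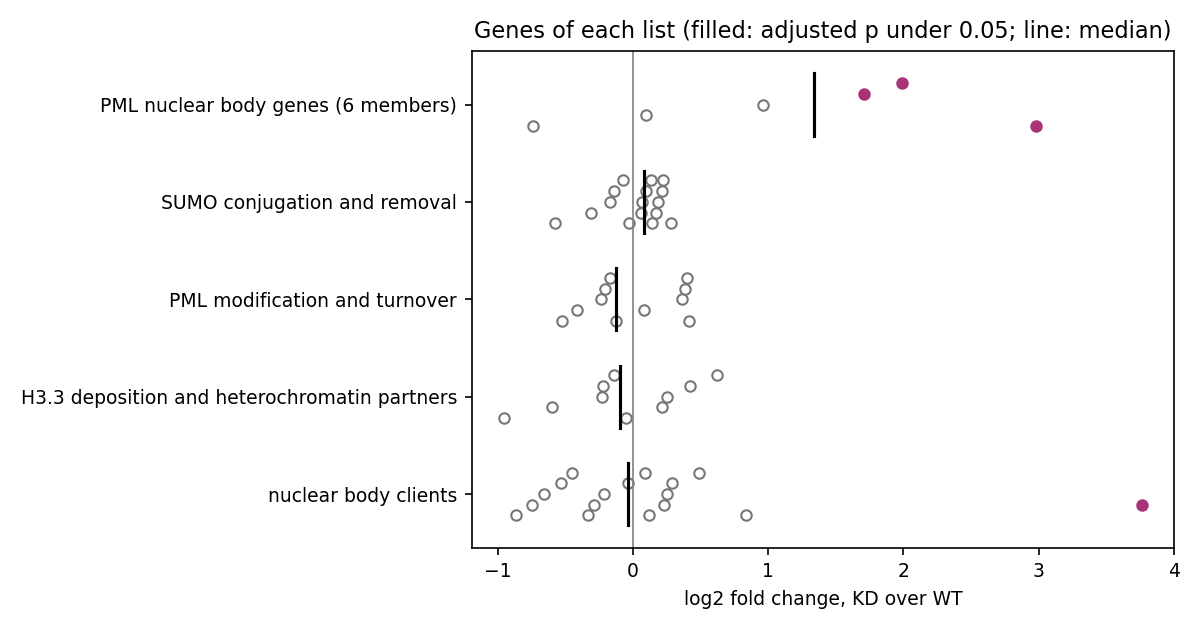
Log2 fold change of KD over WT for each tested gene in the 6 PML body genes and the 4 lists of body machinery, with a vertical line at each list's median. Filled points have an adjusted p under 0.05 in edgeR; apart from the body genes, the filled point is ISG20 at 3.77.

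For comparison, STAT2 and IRF9, which act in the interferon-activated complex that binds the response element named above, rose in KD. The log2 fold changes were 1.94 for STAT2 and 2.66 for IRF9 (adjusted p = 0.00184 and 6.49e-05 in edgeR). Those of PML, SP100 and SP110 were 1.99, 1.71 and 2.98. The difference between these genes and the body genes was not tested.

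Genes beside the 6 on their chromosomes were followed to 250 kb on either side. Of 35 tested neighbours, 0 passed in edgeR, 5 had an unadjusted p under 0.05, DESeq2 called 1, limma-voom 0 and the fit with the replicate block 4. With the block this is 11.4% of the neighbours, near the 9.52% of all tested genes. The median log2 fold change of the neighbours was −0.05. The 4 neighbours called with the block, named here after their values were seen, were ATP7A beside ATRX, ZBTB22 and KIFC1 beside DAXX, and ISLR beside PML. ISLR averaged 6.43 (WT) and 0.464 (KD) CPM, and its log2 fold change was −3.79 (adjusted p = 0.17 without and 0.00359 with the replicate block, edgeR). The neighbours of DAXX, 21 genes of the MHC region and most of the 35, had a median of 0.02. The median was −1.60 for the 4 neighbours of PML, all with a log2 fold change below 0, and −0.48 for the 5 of ATRX. It was 1.78 for the 3 of SP110, 1.21 for the 3 of SP100 and 1.78 for the single one of SP140L, which is also counted for SP110 and SP100. These medians are the values of scarce genes, AC009950.2 at 0.284 (WT) and 0.991 (KD) CPM and AC098823.3 at 0.292 and 0.677 CPM. Their standard errors were 1.63 and 1.95. FBXO36 beside SP110, also scarce at 0.349 and 1.34 CPM, was at 1.94. Neighbours at a higher level were TRIP12 beside SP110 (130 CPM in WT, log2 fold change −0.06) and CAB39 beside SP100 (36.5 CPM in WT, −0.13).

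The tested genes with the most similar course over the 6 libraries were found by the root mean square difference of mean-centred log2 CPM, a measure that the contrast between KD and WT dominates. For PML they were CHST1 (0.146), BST2 (0.204) and LAT2 (0.207). For SP100 they were HLA-E (0.104), HLA-H (0.137), a pseudogene whose reads may belong to other HLA genes, and PTK2B (0.167). SP110 came closest to TAP1 (0.148), SAMHD1 (0.205) and IFITM3 (0.212). SP140L came closest to CNDP2 (0.0804), ELL (0.0839) and MSX1 (0.096). The nearest genes to DAXX were DHX16 (0.0339), AKAP8 (0.037) and NOL6 (0.0472), and those to ATRX were PAQR3 (0.0936), TMCC2 (0.0995) and STXBP5 (0.127). Among the 6 genes themselves, SP140L and DAXX (0.437) and PML and SP100 (0.445) were the closest pairs, and SP110 and ATRX (2.02) the farthest.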

How the data were processed

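Gene-level expected counts of 6 RNA-seq libraries were those the authors deposited, made from polyA-selected, directional, single-end libraries with STAR and RSEM on GRCh37 (hg19), as the study's methods and the submitters' processing notes give them. The annotation release and strand setting are not given in the sources used here. Expected counts were rounded and tested with edgeR 4.0.16 (R 4.3.3) by TMM scaling, filterByExpr (15605 genes tested) and the quasi-likelihood test for KD over WT, with Benjamini-Hochberg adjustment at 0.05. CPM are scaled by TMM, and a fold change is that of the model. DESeq2 1.42.0, limma-voom (limma 3.58.1), a replicate block, other filters and left-out libraries were alternatives. RSEM's own comparison step was replaced by edgeR.

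Deviations from group means correlated at r = 0.556, 0.452 and 0.350 between libraries of the same number and from −0.520 to 0.265 between the others, across 8932 genes, so the replicate numbers were taken as pairs. The pairing comes from the numbers in the sample titles and these correlations, which were taken from the same counts that the fit with the replicate block tests. The deviations within a condition cancel out for each gene, so positive correlations for some libraries force negative ones for others. The main fit did not use the pairs.

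Totals ran from 24895998 to 35181733 counts. A floor of 3 counts was 0.0870 to 0.112 TMM-scaled CPM, and it covers counting error only. Positions and transcript lengths came from GENCODE on GRCh37. Windows came from RefSeq and were aligned with Biopython 1.88 (Python 3.11.15). The fit without the block was also run on simulated counts, which held no deviations shared by same-numbered libraries, unlike the data. The table had 0 unused sample columns.

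The members and lists were chosen with earlier results of these data known. Genes named are the members, list genes that passed, the 2 most abundant of each list of body machinery, the 3 most similar genes of each member, STAG2, called neighbours and genes that could share reads. Some genes that this rule names are not reported here. H3F3A, HIRA, BLM, TRIM24, the neighbours called with the block and the named neighbours of SP100 and SP110 outside the family are named after their values were seen.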

Additional observations from a re-analysis of the deposited data

How the results depend on the processing

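PML, SP100 and SP110 kept their direction and an adjusted p under 0.05 in each of the 16 alternatives run. With the replicate block, the count of called genes was 1486 in place of 404 over all tested genes, 5 in place of 3 among the PML body genes, 1 in place of 0 in the H3.3 list and 2 in place of 1 among the body proteins. The block gave log2 fold changes of 0.96 for SP140L and −0.77 for ATRX, both then called, and changed no other call among the 6 genes. With DESeq2, 988 genes were called, 1 in the H3.3 list and 2 among the body proteins, and SP140L passed at 0.96. Without the low-count filter the counts were 1103, 1 and 2, and SP140L passed at 0.96. At an adjusted p under 0.01, 137 genes were called. limma-voom and a minimum of 10 counts each called 2 body proteins. The cause of these shifts was not tested.

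Leaving out libraries, 121 (without KD replicate 3) to 757 (without both replicates 1, chosen after seeing the data) genes were called over all tested genes. Single libraries gave 531 without WT replicate 1, 177 without WT replicate 2, 165 without WT replicate 3, 241 without KD replicate 1 and 146 without KD replicate 2. The range was 3 to 4 for the PML body genes, 0 to 1 for the H3.3 list (HIRA, without both replicates 1) and 1 to 2 for the body proteins (IFI16, without WT replicate 1 and without both replicates 1). The log2 fold change ranged from 0.82 to 1.12 for SP140L, from −0.13 to 0.24 for DAXX, which turned at −0.13 without WT replicate 1, and from −1.17 to −0.43 for ATRX. It ranged from 1.74 to 2.24 for PML, 1.58 to 1.85 for SP100 and 2.73 to 3.13 for SP110. With 3 libraries per condition, the wide intervals of DAXX and ATRX limit what can be said of either.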

Other observations

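The start windows were also counted over the other tested genes, with the members left out. Of 10175 tested genes with a RefSeq window, 201 (1.98%) were higher in KD and 96 lower, by edgeR's adjusted p under 0.05. Among 412 genes whose window held the core of the interferon-stimulated response element, 50 (12.1%) were higher and 1 lower, with a median log2 fold change of 0.15. The more closely spaced pair of GAA and GAAA, which 4 of the 5 windows of SP100, SP110 and SP140L held, was in 843 other tested genes, of which 54 (6.41%) were higher and 8 lower. A gene can hold both motifs, so these 54 may include some of the 50 with the core, and they were not separated. Of 886 genes with the gamma-activated sequence, 31 (3.50%) were higher and 9 lower. The 10 bases shared by the SP100 and downstream SP110 windows were in 19 other tested genes, of which 1 was higher and 0 lower. These counts were made after the windows had been read, and no difference between them was tested.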
